A study of Mus musculus with 6 samples.

Results

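Solute carriers were represented by 181 genes, of 11138 genes that the arrays named, and were chosen by symbol alone: every symbol that starts with Slc followed by a family number, the letter a and a member number. This rule took in 5 entries that are not carriers, described below, and they are counted among the 181. RNA of sorted mouse endothelial cells, the lining cells of blood vessels, was compared between mice exposed to tobacco smoke and control mice on 6 arrays of 2 channels each. Exposure for 6 weeks was compared with a 1-week control on 2 arrays, 1 of which had the dyes reversed, and with a 6-week control on 1 array. Exposure for 1 week was compared with control on 3 arrays, 1 of them dye-reversed. The 6-week means below combine both kinds of control. On the 2 arrays against 1-week control, smoke cannot be told apart from the difference in time between the samples. The labels do not say whether the 1-week arrays used the same control RNA. Both limits also apply to the difference between the exposure times. The labels gave no strain, sex, age, tissue, smoke dose or number of animals, and did not say whether arrays came from separate animals. The p-values therefore measure the spread between arrays, which may be technical, and the small number of arrays limits their precision. The labels leave unclear which RNA the 1-week dye reversal carries. It entered as a replicate of its own, and if its RNA was also used on replicate 2 or 3, the 1-week errors and p-values may be too small.

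Solute carriers are membrane proteins that move sugars, amino acids, nucleosides, metals, inorganic ions and organic acids across the plasma membrane and the membranes of organelles, many of them by coupling transport to an ion gradient. Endothelial cells rely on them to supply themselves and the tissue behind them. Slc2a1 carries glucose across barrier endothelium, Slc7a1 supplies arginine, the substrate of nitric oxide synthesis, and Slc6a4 takes up serotonin from blood in the lung. Slc7a11 exchanges cystine for glutamate and supports glutathione synthesis. Its gene is a known target of the antioxidant and amino acid stress responses.

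The deposited values were 1 log2 ratio per spot and array, with smoke as the first channel on every array, so a log2 ratio of 1 stands for a 2-fold ratio. A positive value is likely higher after smoke, but the labels state neither the ratio's direction nor whether ratios of dye-reversed arrays were inverted by the submitters. All arrays were therefore kept as deposited. Most carriers had 2 spots (165 genes), the other 16 had more, and in 88 carriers (48.6%) no array showed spots 1 log2 unit or more apart. The same held for 50.5% of all named genes. Over the 181 carriers, the first 2 spots of a gene correlated with r between 0.22 and 0.43 within an array. Between arrays, r over the same genes lay between -0.08 and 0.28. These correlations describe genes that share arrays and are not independent.

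No solute carrier passed the test at either exposure time. In the limma fit the smallest adjusted p among the 181 genes was 1 for 6-week smoke, 0.671 for 1-week smoke, 0.951 for the difference between the times and 0.634 for the mean of both times. The 1-week value of 0.671 belonged to the pseudogene Slc39a1-ps, and the smallest of a carrier was 0.676 (Slc25a4). None of the 19242 tests passed in any of the comparisons either (0%). At an unadjusted p under 0.05 there were 4 carriers at 6 weeks (3 positive and 1 negative), or 2.21%, against 4.12% of all tests (2.18% positive and 1.94% negative). At 1 week there were 6 (4 positive and 2 negative), or 3.31%, against 6.65% of all tests (3.53% positive and 3.12% negative). The difference between the times gave 5 (1 positive and 4 negative), or 2.76%, against 3.55% (1.72% positive and 1.83% negative). The mean of both times gave 12 (9 positive and 3 negative), or 6.63%, against 6.31% (3.2% positive and 3.12% negative). Of the 5 entries that are not carriers, 1 was counted here at 1 week, 1 for the difference and 1 for the mean. The shares of carriers were near or below those of all tests. Without the 1-week dye reversal, 11 carriers were at an unadjusted p under 0.05 at 1 week and 0 were called. With either dye-reversed array turned, the count for the mean of both times was 4. The share over all tests was not taken in these fits.

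The carriers had no common shift. Their median log2 ratio was -0.0145 at 6 weeks and -0.0023 at 1 week, against -0.0053 and -0.0064 for all named genes. A mean ratio over 0.5 in size was found for 13 carriers (7.18%) at 6 weeks and 16 (8.84%) at 1 week, against 9.83% and 12.9% of named genes. On all 3 arrays of a comparison 40 carriers (22.1%) had one sign at 6 weeks and 53 (29.3%) at 1 week. Among named genes these shares were 24.6% and 31%. The sign was the same on all 6 arrays for 12 carriers (6.63%), against 6.86% of named genes. By carrier group, the medians lay between -0.07 and 0.11 at 6 weeks and between -0.04 and 0.07 at 1 week, leaving out 5 entries that are not carriers and 1 ungrouped entry. The groups went by family number alone. A group can therefore hold members with another substrate, such as Slc5a5 and Slc5a7 among the sugar carriers.

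**Figure D1:**
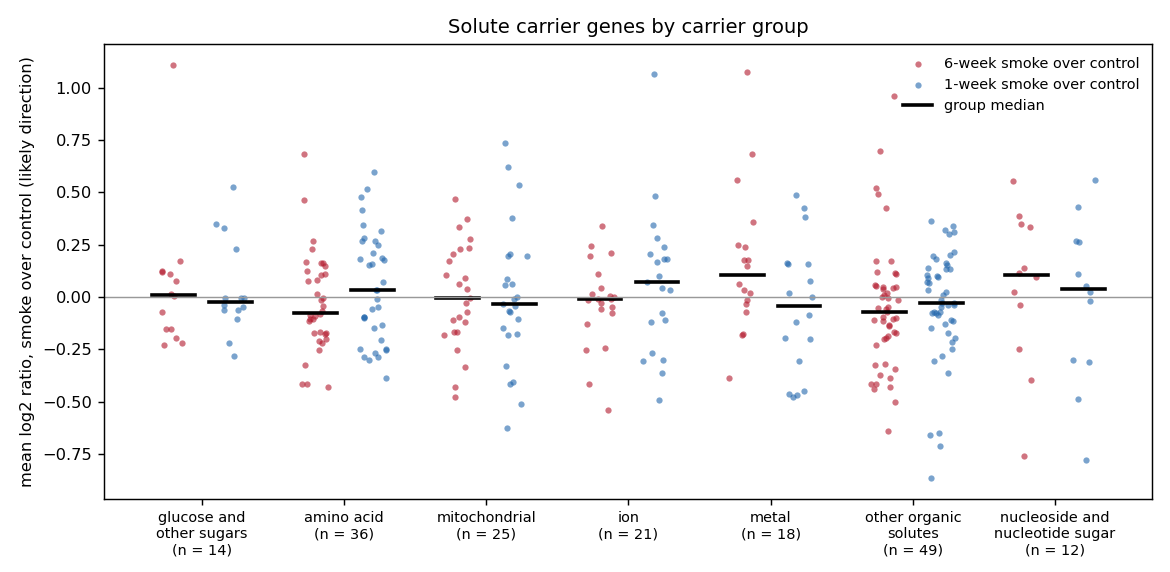
Mean log2 ratio of each solute carrier gene in the fit, for 6-week smoke (red) and 1-week smoke (blue), by carrier group; each point is 1 gene and the black bar is the group median. The medians of all 7 groups lie close to 0, and single genes reach 1.11 at 6 weeks and 1.06 at 1 week.

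When the fit was limited to the genes whose spots agreed, 0 of the 88 carriers passed, while 0.213% of the 5625 genes passed at 6 weeks, 1.81% at 1 week, 0% for the difference and 1.83% for the mean of both times. The unadjusted count of these carriers was 4 at 6 weeks, 10 at 1 week, 5 for the difference and 9 for the mean of both times. The corresponding shares of the 5625 genes were 7.77%, 14.1%, 6.72% and 14.3%. The lowest adjusted p of any carrier in these fits belonged to Slc1a4 for the mean of both times (0.0862), followed by Slc25a4 at 1 week (0.106).

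Per-array values below are log2 ratios in a fixed order. For 6-week smoke the order is the unreversed and the dye-reversed array against 1-week control, then the array against 6-week control. For 1-week smoke it is the dye-reversed array (replicate 1), replicate 2 and replicate 3.

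Amino acid carriers formed a group of 36 genes, of which 1 reached an unadjusted p under 0.05 at 6 weeks and 1 at 1 week. Slc1a4, a sodium-coupled exchanger of alanine, serine and cysteine, had log2 ratios of 0.06, 0.92 and 0.87 on the 6-week arrays and 0.34, 0.18 and 0.51 on the 1-week arrays. All 6 were positive, and the 6-week and 1-week ranges overlapped. Its mean was 0.68 ± 0.20 (SE) at 6 weeks and 0.35 ± 0.17 at 1 week, and 0.51 ± 0.13 over both times (adjusted p = 0.634, limma). In the agreeing-spot fit the adjusted p of the mean of both times was 0.0862 on all 6 arrays and 0.0471 without the first of them, which held the lowest value. The fits without 1 array in agreeing spots were added after the values were seen. The share of all genes called in them was not taken.

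Slc6a6, the taurine carrier, had 0.72, -0.70 and -0.66 on the 6-week arrays and 0.21, 0.66 and 0.93 on the 1-week arrays. The 1-week values were all positive, and 2 of the 3 values at 6 weeks were negative. The mean was -0.33 ± 0.27 at 6 weeks and 0.60 ± 0.22 at 1 week, a difference of -0.93 ± 0.35 (adjusted p = 0.951). Its spots differed by up to 1.03 log2 units, and the 6-week mean was 0.026 with the 6-week dye reversal turned and 0.029 without that array. Slc3a2, the heavy chain that pairs with Slc7a5 and Slc7a11 and brings them to the cell surface, had 0.14, 0.11 and 0.09 on the 6-week arrays and 0.41, 0.13 and 0.89 on the 1-week arrays. Every array was positive, and its mean at 1 week was 0.48 ± 0.20 (adjusted p = 0.745).

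Its partner light chains had mixed signs. Slc7a11 had 0.19, 0.08 and -0.36 on the 6-week arrays and -0.18, 0.32 and 0.31 on the 1-week arrays. Its 95% interval was -0.71 to 0.48 at 6 weeks and -0.34 to 0.64 at 1 week, so that a 2-fold change in either direction lay outside both intervals under the model. Slc7a5, the carrier of large neutral amino acids, lay between -0.08 and 0.84 on the 6-week arrays and between -0.35 and 0.08 on the 1-week arrays, with spots up to 1.07 apart. Slc7a1 had 95% intervals of -0.65 to 0.47 at 6 weeks and -0.28 to 0.64 at 1 week. The interval of Slc6a4 was -0.61 to 0.43 at 6 weeks and -0.52 to 0.33 at 1 week. None of these 4 genes kept one sign across the arrays.

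The core of the amino acid response element, TGATGCAA on either strand, binds factors that induce genes when amino acids run short, and it is shown here because Slc7a11 is a known target of that response. A match is a description, and a response was not tested. RefSeq promoters (250 bases before to 50 after the start of a gene, assembly GRCm38.p6) matched 141 carrier genes with 189 promoters. The core was present in 6 of the 189 (3.17%), from 5 genes, and in 0.895% of all 32851 promoters. Overlapping promoters of Slc7a7 hold the same site, which is therefore counted more than once. Such overlaps were not removed from either share. The stretches below run from 150 bases before the start to 10 after it, 5′ to 3′ on the strand of the gene, with the core or its reverse complement TTGCATCA in capitals.
Slc7a11: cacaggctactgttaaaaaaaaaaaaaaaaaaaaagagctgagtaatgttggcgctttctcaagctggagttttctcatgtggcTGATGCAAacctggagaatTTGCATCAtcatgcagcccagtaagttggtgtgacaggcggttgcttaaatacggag
Slc1a4: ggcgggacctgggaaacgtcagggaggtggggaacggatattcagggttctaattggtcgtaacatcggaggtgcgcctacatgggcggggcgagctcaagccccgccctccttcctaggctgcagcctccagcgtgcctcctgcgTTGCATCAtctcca
Slc17a1: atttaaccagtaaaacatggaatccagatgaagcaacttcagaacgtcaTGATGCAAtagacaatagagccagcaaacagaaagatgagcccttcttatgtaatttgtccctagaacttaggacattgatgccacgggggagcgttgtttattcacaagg
Slc7a7: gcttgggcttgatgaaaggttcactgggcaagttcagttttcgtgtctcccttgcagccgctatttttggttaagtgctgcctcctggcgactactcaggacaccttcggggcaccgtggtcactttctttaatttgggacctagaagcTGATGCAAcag
The Slc7a11 stretch (chr3:50443604-50443763, minus strand) holds 2 cores in opposite orientation, beginning 66 and 47 bases before the start. In Slc1a4 (chr11:20332704-20332863, minus strand) the single core begins 4 bases before the start. Slc17a1 (chr13:23868868-23869027, plus strand), a phosphate and organic anion carrier, and Slc7a7 (chr14:54417935-54418094, minus strand), a light chain for cationic amino acids, hold 1 each. The fifth gene, Slc50a1, has its core outside the stretch shown. The genes did not share a pattern: Slc1a4 was positive on all 6 arrays, Slc7a11 on 4, Slc7a7 on 3 (-0.06, -0.89 and 0.39 at 6 weeks, and 0.14, -0.45 and 0.03 at 1 week) and Slc17a1 on 1 (0.85 on 1-week replicate 3). Spots disagreed for Slc7a7 (0.15 and -1.92 behind the -0.89) and for Slc17a1 (-0.08 and 1.78 behind the 0.85). Slc50a1, a sugar carrier, had -0.24, -0.36 and -0.16 at 6 weeks and -0.08, 0.14 and -0.06 at 1 week. The antioxidant response element core, TGACNNNGC on either strand, was in 15.9% of the 189 carrier promoters and 12.4% of all promoters.

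The families grouped as sugar carriers held 14 genes, and 0 of them reached an unadjusted p under 0.05 at 6 weeks or at 1 week. Slc2a1 had 0.43, 0.15 and -0.43 on the 6-week arrays and 0.18, -0.23 and -0.27 on the 1-week arrays, with 95% intervals of -0.72 to 0.58 and -0.63 to 0.42. Slc2a3, a high-affinity glucose carrier, lay between -0.34 and 0.01 at 6 weeks and between -0.15 and 0.02 at 1 week, although its 4 spots differed by up to 1.67. Slc2a9, which carries urate, had the highest 6-week mean of all carriers, 1.11 ± 0.58 (adjusted p = 1), from values of 2.32, 0.65 and 0.74. Its 1-week values were -0.71, 1.71 and 0.05 and its spots differed by up to 1.42, and the 95% interval of the 6-week mean was -0.35 to 2.58.

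The mitochondrial group held the 25 genes of the Slc25 family, most of which exchange metabolites across the inner mitochondrial membrane. It included 2 at an unadjusted p under 0.05 at 1 week, both positive, and 0 at 6 weeks. Slc25a4, an ADP/ATP exchanger that exports ATP from mitochondria, had 0.16, -0.09 and 0.71 on the 6-week arrays and 0.60, 1.10 and 0.50 on the 1-week arrays. The 3 values at 1 week were all positive, and the 6-week range reached into theirs. Its mean at 1 week was 0.74 ± 0.22 (adjusted p = 0.676), and 0.55 ± 0.17 over both times. Slc25a5, another ADP/ATP exchanger, had values of the opposite sign at 1 week: -0.42, -0.14 and -0.69, with -0.37, -0.68 and 0.39 at 6 weeks and spots up to 1.59 apart.

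Slc25a33, a pyrimidine nucleotide carrier, had -0.29, 0.68 and -0.08 at 6 weeks and 0.55, 0.79 and 0.26 at 1 week, with a 1-week mean of 0.53 ± 0.18 (adjusted p = 0.72) and spots up to 1.12 apart. Slc25a25, a calcium-regulated carrier of ATP-magnesium and phosphate, was negative on every array: -0.71, -0.82 and -0.10 at 6 weeks and -0.48, -0.03 and -1.02 at 1 week. Its mean was -0.51 ± 0.25 at 1 week (adjusted p = 0.747) and -0.47 ± 0.20 over both times (adjusted p = 0.81). Slc25a23, of the same subfamily, was positive on every array, between 0.16 and 0.45 at 6 weeks and between 0.09 and 0.54 at 1 week. Slc25a13, the aspartate-glutamate carrier citrin, had 0.24, 0.02 and 0.81 at 6 weeks (mean 0.47 ± 0.26) and -0.12, 0.49 and 0.23 at 1 week. The phosphate carrier Slc25a3 lay between -0.29 and -0.02 at 6 weeks and between -0.43 and 0.21 at 1 week.

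Metal carriers numbered 18, of which 0 reached an unadjusted p under 0.05 at 6 weeks and 1 at 1 week. Slc39a13, a zinc carrier of the early secretory pathway, had -0.71, 0.11 and -0.48 at 6 weeks and -0.21, -0.68 and -0.46 at 1 week. All values except the 6-week dye reversal were negative, the 2 groups overlapped, and the mean was -0.39 ± 0.20 at 6 weeks, -0.45 ± 0.17 at 1 week and -0.42 ± 0.13 over both times (adjusted p = 0.694). Slc39a4, a zinc importer, had 0.66, 1.61 and 0.24 at 6 weeks, with a mean of 0.68 ± 0.36, and -0.03, 0.09 and -0.97 at 1 week. Its spots differed by up to 1.99, and its 6-week mean was -0.12 with the 6-week dye reversal turned.

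Slc30a5, which moves zinc into secretory compartments, had 1.64, 0.41 and 0.09 at 6 weeks (mean 0.56 ± 0.30) and 0.14, -0.18 and 0.51 at 1 week, with spots up to 1.26 apart. Slc30a1, the zinc exporter of the plasma membrane, lay between -0.32 and 0.23 at 6 weeks and between -0.30 and -0.11 at 1 week. Slc39a8, which takes up zinc, manganese and cadmium, a metal of tobacco smoke, had 0.16, -0.87 and 0.48 at 6 weeks and -0.43, -0.21 and 0.04 at 1 week. Its 95% interval was -0.61 to 0.74 at 6 weeks and -0.75 to 0.36 at 1 week. Slc40a1, the iron exporter ferroportin, had 0.44, 0.03 and 0.26 at 6 weeks and 0.51, -0.01 and -0.02 at 1 week.

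Ion carriers numbered 21, and 0 reached an unadjusted p under 0.05 at either time. Slc26a4, an anion exchanger for chloride, iodide and bicarbonate, was positive on every array, with 0.13, 0.16 and 0.54 at 6 weeks and 0.90, 0.26 and 0.29 at 1 week. Its mean was 0.48 ± 0.20 at 1 week and 0.41 ± 0.16 over both times (adjusted p = 0.786). The 1-week mean was -0.12 with the 1-week dye reversal turned. Slc26a5, the motor protein of outer hair cells, was also positive on every array, between 0.12 and 0.44 at 6 weeks and between 0.05 and 0.26 at 1 week.

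The families grouped as nucleoside and nucleotide sugar carriers held 12 genes, and 1 of them reached an unadjusted p under 0.05 at 6 weeks. Slc28a2, a sodium-coupled importer of purine nucleosides such as adenosine, had -0.16, -1.50 and -0.69 on the 6-week arrays and -0.07, 0.07 and 0.07 on the 1-week arrays. Every 6-week value was below every 1-week value. The mean was -0.76 ± 0.18 at 6 weeks and 0.02 ± 0.15 at 1 week, a difference of -0.78 ± 0.23, with adjusted p values of 1 for the 6-week mean and 0.951 for the difference. In the agreeing-spot fit the adjusted p was 0.216 at 6 weeks and 0.495 for the difference. Slc29a1, an equilibrative nucleoside carrier, had 0.31, 0.30 and 0.80 at 6 weeks and -0.01, 2.04 and -0.35 at 1 week, but its spots differed by up to 4.58 log2 units. Its mean was 0.55 ± 0.59 at 6 weeks. Slc35a1, which brings CMP-sialic acid into the Golgi, was positive on every array, with 0.05, 0.16 and 0.68 at 6 weeks and 0.58, 0.44 and 0.27 at 1 week. Its mean was 0.43 ± 0.18 at 1 week and 0.41 ± 0.14 over both times (adjusted p = 0.747), with spots up to 1.27 apart.

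Carriers of other organic solutes were the largest group, with 49 genes, 2 at an unadjusted p under 0.05 at 6 weeks and 1 at 1 week. Slc14a2, a urea carrier, was negative on every array, with -0.17, -0.74 and -0.83 at 6 weeks and -0.04, -0.84 and -1.72 at 1 week. Its mean was -0.64 ± 0.41 at 6 weeks, -0.86 ± 0.33 at 1 week and -0.75 ± 0.26 over both times (adjusted p = 0.743). In the agreeing-spot fit without the 1-week dye reversal, the adjusted p was 0.0442 for 1 week and 0.0275 for both times. That array held its smallest value in size, and Slc14a2 did not pass in the agreeing-spot fit on all arrays. The fit without it was added after the values were seen, and the share of all genes called was not taken. Slc17a9, which loads ATP into secretory vesicles, was positive on every array, with 0.22, 0.25 and 1.16 at 6 weeks and 0.18, 0.47 and 0.26 at 1 week. Its mean was 0.70 ± 0.27 at 6 weeks and 0.50 ± 0.18 over both times (adjusted p = 0.745). The array against 6-week control stood above the other 5.

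Slc22a4, a carrier of ergothioneine and organic cations, had 0.35, 2.01 and 0.74 at 6 weeks and 0.47, 0.09 and -0.47 at 1 week, with spots up to 1.56 apart. Its mean was 0.96 ± 0.28 at 6 weeks (adjusted p = 1) and the 1-week arrays had both signs. With the 6-week dye reversal turned, the 6-week mean was -0.0445. Slc15a2, a peptide carrier, had -0.16, -0.80 and -0.21 at 6 weeks and 0.39, 0.24 and 0.31 at 1 week, with no overlap between the times. Its difference was -0.66 ± 0.24 (adjusted p = 0.951), and it was 0.0020 with both dye reversals turned. Slc10a7, of the bile acid carrier family, had -0.24, -1.54 and -0.11 at 6 weeks (mean -0.50 ± 0.24), spots up to 2.07 apart, and a 6-week mean of 0.27 with the 6-week dye reversal turned. Slc16a1, a carrier of lactate and pyruvate, lay between -0.45 and 0.37 at 6 weeks and between -0.36 and 0.42 at 1 week. Its spots were 1.36 and -0.52 on 1-week replicate 3. Slc33a1, which brings acetyl-CoA into the endoplasmic reticulum, lay between -0.38 and 0 at 6 weeks and between -0.14 and 0.06 at 1 week.

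**Figure D2:**
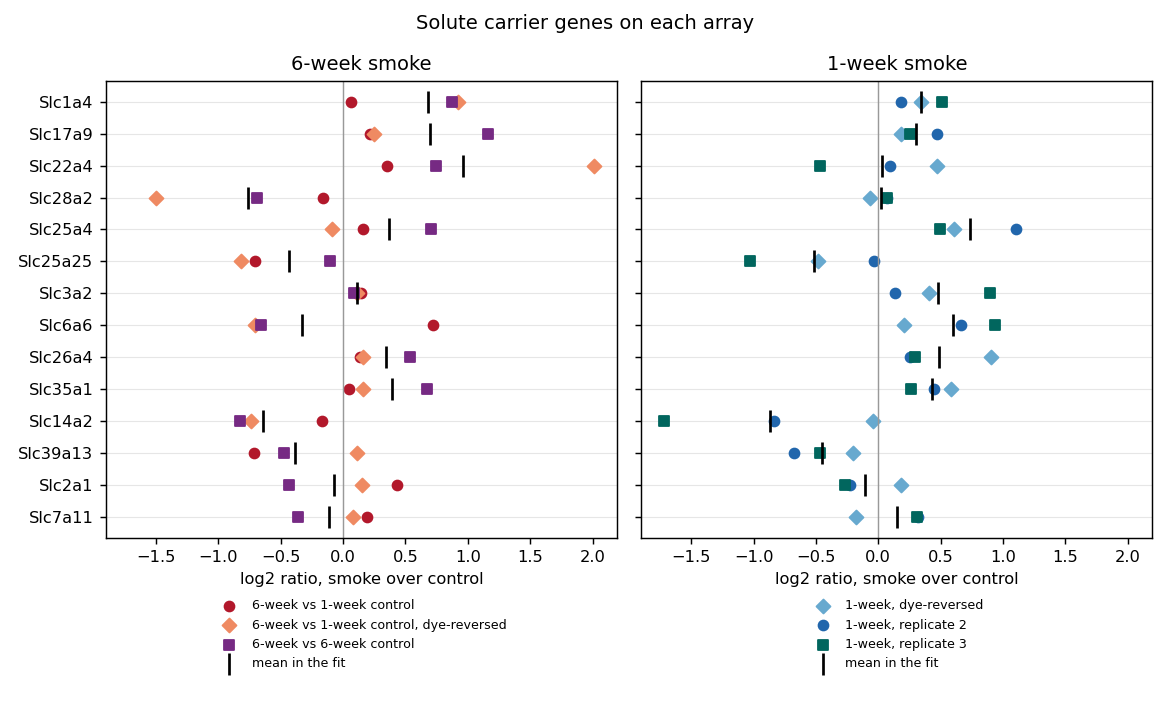
Log2 ratio of 14 named solute carrier genes on each array, 6-week smoke on the left and 1-week smoke on the right; symbols mark the arrays and the black tick is the mean in the fit. Slc1a4 is positive and Slc14a2 negative on all 6 arrays, whereas Slc28a2 is negative at 6 weeks and within 0.07 of 0 at 1 week.

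The symbol rule also took in 5 entries that are not carriers. Slc39a1-ps, a pseudogene, was positive on every array (0.28, 0.12 and 0.13 at 6 weeks, and 0.79, 0.32 and 1.48 at 1 week, mean 0.86 ± 0.25 at 1 week, adjusted p = 0.671). Its spots differed by up to 2.38, and its signal cannot be told apart from that of the parent gene. Slc4a1ap, an adaptor protein, had 0.12, -0.44 and -0.43 at 6 weeks and 0.24, 0.48 and 0.29 at 1 week, a difference of -0.63 ± 0.25 (adjusted p = 0.951) with no overlap. Slc9a3r1 and Slc9a3r2, scaffold proteins, and Slc6a19os, an opposite-strand transcript, were at an unadjusted p over 0.05 in all 4 comparisons.

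Some carriers stood out on 1 array. A rule chosen after the values were seen, a ratio over 1 in size on 1 array and under 0.5 on the other 5, was met by 19 carriers (10.5%) and by 6.54% of named genes. With agreeing spots these shares were 5 carriers (5.68%) and 3.54% of genes. Slc12a2, the sodium-potassium-chloride cotransporter that sets cell volume, had 3.21 on 1-week replicate 3, with both spots high (3.17 and 3.25). On each of the other 5 arrays its 2 spots held the same deposited value (within 0.0001), close to 0. Spots of a gene with the same value on 4 or more arrays were found for 3 carriers (1.66%; Slc12a2, Slc1a2 and Slc6a9) and for 0.575% of named genes, and whether such values are measured ratios or a fill-in value is not known. Its mean was 1.06 ± 0.67 at 1 week and -0.0072 without that replicate. Slc11a2, the proton-coupled importer of iron, had 2.43 on the 6-week array against 6-week control, again with both spots high (2.27 and 2.58), and between -0.39 and -0.03 on the others. Its mean was 1.07 ± 0.61 at 6 weeks and -0.28 without that array. The other 3 were Slc17a9 (1.16) and Slc34a1, a phosphate carrier (-1.10), both on the array against 6-week control, and Slc1a1, a glutamate carrier (-1.18), on the 6-week dye reversal. Slc1a1 had 0.09 on the array of the same comparison in the other dye order.

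**Figure D3:**
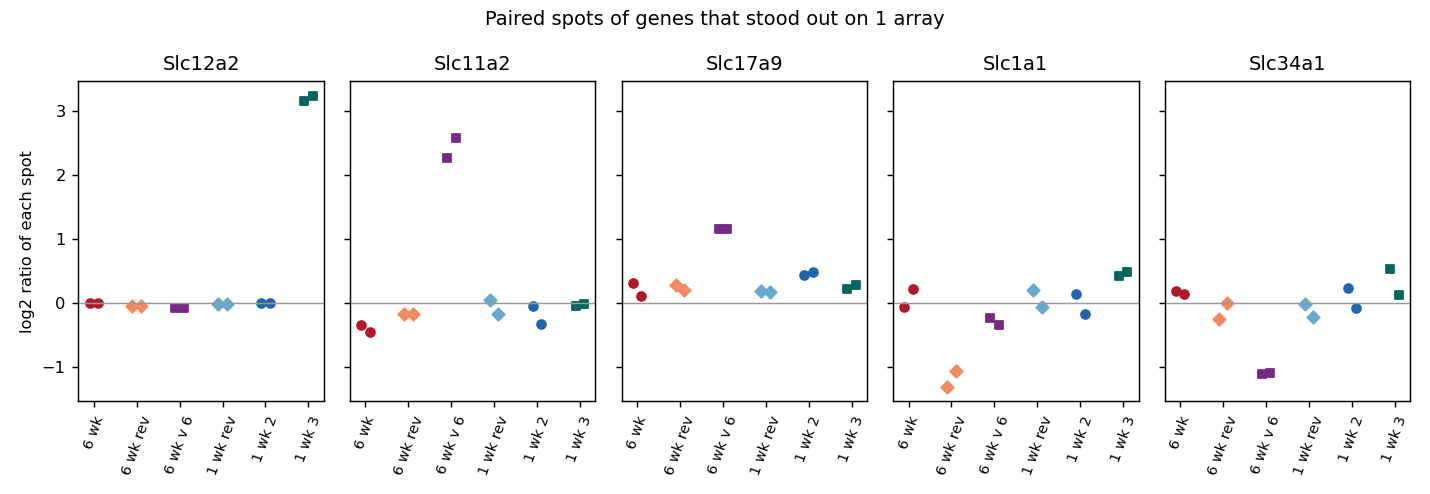
Log2 ratio of each of the 2 spots of 5 genes on the 6 arrays (6 wk, 6-week smoke against 1-week control; 6 wk rev, its dye reversal; 6 wk v 6, against 6-week control; 1 wk rev, 1-week dye reversal; 1 wk 2 and 1 wk 3, replicates 2 and 3). The 2 spots of Slc12a2 reach 3.17 and 3.25 on 1-week replicate 3 only.

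The 2 dye-reversed arrays gave carriers similar values although their exposure times differed. Over the 88 carriers with agreeing spots, the 6-week dye reversal correlated with the array of the same comparison in the other dye order at r = -0.06 and with the 1-week dye reversal at r = 0.49. In all 181 carriers the values were -0.05 and 0.28. The 2 dye-reversed arrays had one sign for 63 of the 88 carriers, and the dye-swapped pair at 6 weeks for 35. Named genes showed the same order: over the 5625 with agreeing spots r was 0.43 for the 2 dye reversals and 0.045 for the dye-swapped pair, and one sign was found for 61% and 46.2% of them, against 71.6% and 39.8% of the 88 carriers. The unreversed 6-week array, labelled with the same 1-week control, correlated with the 1-week dye reversal at r = -0.18 over the 88 carriers and with the unreversed 1-week replicates 2 and 3 at 0.31 and 0.23. Slc34a2, a phosphate carrier, had the widest gap among the 88, with 0.67 and 1.80 on the 6-week and 1-week dye reversals against -0.94 and -0.02 on the other 6-week arrays and -1.08 and -0.61 on the other 1-week arrays. The mitochondrial carrier Slc25a35 had 1.02 and 0.94 on the dye reversals and between -0.29 and 0.19 on the other 4 arrays.

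**Figure D4:**
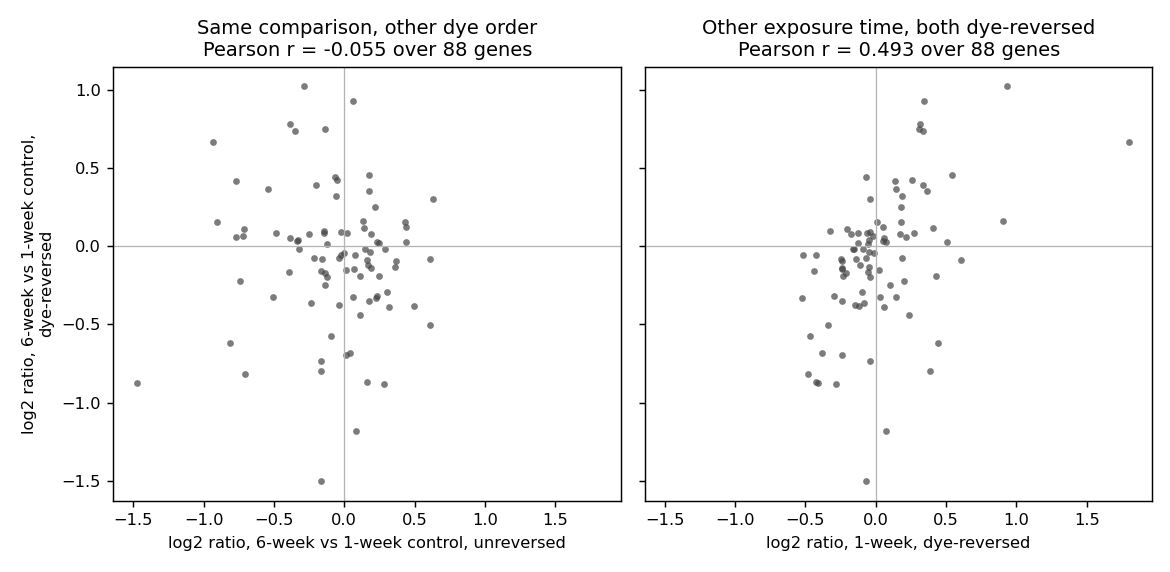
Log2 ratio of the 88 carriers with agreeing spots on the 6-week dye reversal (vertical axis) against the array of the same comparison in the other dye order (left) and against the 1-week dye reversal (right); each point is 1 gene. The right panel has Pearson r = 0.493 and the left r = -0.055.

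Transporters outside the solute carrier families were counted by lists: 33 ABC pumps, 24 P-type ATPases, 9 Slco carriers, 8 aquaporins and 4 partner chains, 78 genes in all. None passed over all tests (0%), and 3 reached an unadjusted p under 0.05 at 6 weeks (3.85%, against 4.12% of all tests) and 7 at 1 week (8.97%, against 6.65%). In the agreeing-spot fit, which held 43 of the 78, 2 genes passed, where 1.81% of all genes passed at 1 week and 1.83% for the mean of both times. Atp11b, a phospholipid flippase, had -0.98, -0.29 and -0.96 at 6 weeks and -0.47, -1.71 and -1.83 at 1 week, all negative, with an adjusted p of 0.0405 at 1 week and 0.039 over both times. Emb, the chain that brings monocarboxylate carriers to the cell surface, had 0.81, 0.67 and 1.01 at 6 weeks and 1.11, 0.22 and 0.78 at 1 week, all positive, with an adjusted p of 0.039 over both times. With either or both dye reversals turned, 0 genes of these lists were called at 1 week or over both times. The same held without 1-week replicate 3, without the unreversed array against 1-week control and without the array against 6-week control. Without 1-week replicate 2 there were 0 at 1 week and 1 over both times. Nptn, a related chain, had 0.29, -0.17 and 0.83 at 6 weeks and 0.51, 0.91 and 1.24 at 1 week, with an adjusted p of 0.0713 at 1 week. The partner chains did not share a direction. Bsg had -0.37, 0.03 and 0.34 at 6 weeks and -0.06, -0.56 and -0.55 at 1 week, and Cltrn had both signs at each time. Abcb1a, an efflux pump of barrier endothelium, had 0.22, -0.05 and 0.35 at 6 weeks and 0.44, 0.65 and 0.80 at 1 week (adjusted p = 0.0834 at 1 week).

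Cell type markers give context for these ratios, which hold no levels, so the sorted identity of the cells could not be checked against them. Of 11 endothelial markers measured, 1 at 6 weeks (negative) and 4 at 1 week (1 positive and 3 negative) reached an unadjusted p under 0.05, against 4.12% and 6.65% of all tests. The list median was -0.32 and -0.05, with 4 of 11 means positive at 6 weeks and 5 of 11 at 1 week. Cldn5, a tight junction protein, had means of -0.90 at 6 weeks and -0.68 at 1 week. Eng (-0.49 and -0.49), Egfl7 (-0.32 and -0.61) and Emcn (-0.45 and -0.26) were also negative at both times. The junction proteins Pecam1 (0.26 and 0.34) and Cdh5 (0.12 and 0.58) and the receptor Tek (0.33 and 0.44) had positive means. Spots differed by up to 8.13 log2 units for Cdh5, 1.16 for Pecam1 and 1.28 for Emcn. Of 6 fibroblast markers, 0 at 6 weeks and 3 at 1 week reached an unadjusted p under 0.05, all 3 negative, with list medians of -0.13 and -0.52. Of 6 smooth muscle and pericyte markers, 1 at 6 weeks (Acta2, mean 1.14) and 0 at 1 week did so, with list medians of 0.27 and -0.09. Leukocyte markers gave 1 of 8 at each time, epithelial 0 of 6, erythroid 0 of 3 and 1 of 3, and adipocyte 1 of 4 and 0 of 4. In the agreeing-spot fit, which held 4 fibroblast markers, Dpt had an adjusted p of 0.0193 at 1 week and 0.024 over both times (negative). Over both times, Cldn5 (negative, of 7 endothelial markers) had 0.0225 and Acta2 (positive, of 5 smooth muscle and pericyte markers) 0.0364. Other markers did not pass, where 1.81% of all genes passed at 1 week and 1.83% over both times. In such bulk samples fewer cells of a type and less RNA per cell cannot be told apart, and the part of cell composition in the carrier values was not tested.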

How the data were processed

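The deposited values were log2 ratios of 32448 spots on 6 arrays, per the file headers and the values; scanner, background correction, normalization and log base are not given in the sources used here. A probe table gave 24344 spots 1 symbol, and spots were averaged per gene and array. The members, lists and tests were chosen with earlier results of these data known. Arrays were centred on their median and kept in their deposited sign. The dye-swapped pair at 6 weeks was averaged, which left 5 replicates (2 at 6 weeks, 3 at 1 week), with the 1-week dye reversal taken as its own replicate.

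These were fitted with limma 3.58.1 (lmFit, eBayes) in R 4.3.3, 1 coefficient per exposure time, and two-sided p-values were adjusted over 19242 tests by Benjamini-Hochberg (threshold 0.05). Residual degrees of freedom were 3 and prior degrees of freedom 2.391. An error after ± is the moderated SE. The code was tested on simulated data. Promoter sequences came from RefSeq (GRCm38.p6), and spots have no intensity here, so signal over background was not assessed.

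Genes named were, for 6 weeks, 1 week and the mean, those with one sign on every array, a mean over 0.5 in size and the smallest p; those with the smallest p for the difference; the smallest p of each carrier group; and a fixed list of carriers with known roles. Slc17a1, Slc7a7 and Slc50a1 were named for their promoters. Slc1a2, Slc6a9, Slc25a23, Slc26a5, Slc34a2, Slc25a35, Slc9a3r1, Slc9a3r2 and Slc6a19os, and the genes outside the carrier families, were chosen after their values were seen.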

Additional observations from a re-analysis of the deposited data

How the results depend on the processing

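The limits of these values are the number of arrays, the unknown ratio direction and spots that disagree for 93 of the 181 carriers, and signal over background is not known. Each ratio already compares a smoke and a control sample. Arrays could not be paired between exposure times, because the labels give no replicate numbers. Under 20 listed alternatives and 11 chosen after seeing the data (agreeing spots together with sign, dye term or arrays), the 40 gene means gave 1032 values, of which 1003 kept their direction and their side of the threshold, 26 reversed and 3 passed the threshold that they missed before. Because no gene passed in the main fit, most values would keep their side of the threshold under almost any setting. Some settings, such as no variance moderation or leaving out an array of the other exposure time, cannot move a mean. The count of 1003 is therefore not a measure of stability. Where a setting left 1 replicate at 6 weeks, that replicate was assumed to vary like the others. The cause of these changes was not tested.

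No carrier was called in any fit except those without 1 array in agreeing spots, which gave 0 to 1 at 1 week and 0 to 1 for the mean of both times. Without 1 array, the carriers at an unadjusted p under 0.05 ranged from 3 to 10 at 6 weeks, 3 to 11 at 1 week, 1 to 7 for the difference and 4 to 13 for the mean of both times. Without the unreversed array of 6-week smoke against 1-week control there were 10 at 6 weeks. Without 1-week replicate 1 there were 11 at 1 week, and without replicate 3 there were 3. The median of carriers without 1 array ranged from -0.0548 to -0.0145 at 6 weeks, -0.0024 to 0.0663 at 1 week, -0.0889 to 0.0432 for the difference and -0.0414 to 0.0009 for the mean of both times. Other transporters called without 1 array numbered 0 to 1 at 1 week and 0 to 3 for the mean of both times.

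At 6 weeks, the unadjusted count of 4 became 7 with dye orientation as a term, 8 with no variance moderation and 2 on the 4 unreversed arrays. At 1 week, 6 became 3 with both dye reversals turned and 10 with agreeing spots or with named genes only. The difference's 5 became 2 with both dye reversals turned and 1 on the 4 unreversed arrays. The mean's 12 became 4 with the 6-week or the 1-week dye reversal turned, 6 with both turned and 7 on the 4 unreversed arrays. With agreeing spots, the 6-week count was 1 with both dye reversals turned and 12 with the dye term. The difference then gave 1 with the 6-week dye reversal turned, 3 with the 1-week one, 0 with both and 1 on the unreversed arrays. The mean gave 5, 6 and 6 with those 3 turns. Apart from the agreeing-spot fit on all arrays in their deposited sign, the share over all tests was not taken in these settings or without 1 array. Changes in these counts therefore cannot be read as particular to carriers.

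With agreeing spots the 6-week median was -0.0418, also with the 1-week dye reversal turned, -0.0484 with the dye term and -0.0378 on the unreversed arrays. The 1-week median was 0.0351, also with the 6-week dye reversal turned, 0.0523 with the 1-week one or both turned, and 0.0663 on the unreversed arrays. The median difference was -0.0331 with the dye term or with the dye-swapped arrays kept apart, and 0.0184 on the unreversed arrays. With agreeing spots it was -0.0384, -0.0312 with the 6-week dye reversal turned, -0.0311 with the 1-week one, -0.0447 with the dye term and -0.0461 on the unreversed arrays. The median of the mean was 0.0064 with the 6-week dye reversal turned and 0.0249 with both. With agreeing spots it was 0.0032, -0.0037 and 0.0518 with the 6-week, the 1-week and both turned, and 0.0176 on the unreversed arrays. Among other transporters with agreeing spots, 1 was called at 1 week, 2 with the dye term and 1 on the unreversed arrays. For the mean of both times 2 were called, 3 with the dye term and 1 on the unreversed arrays.

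With the 6-week dye reversal turned, alone or with the other, the 6-week means were 0.2698 for Slc10a7, -0.0445 for Slc22a4, -0.1199 for Slc39a4 and 0.0259 for Slc6a6, and alone it gave a difference of -0.0763 for Slc22a4. On the 4 unreversed arrays Slc6a6 gave 0.029 at 6 weeks. With the 1-week dye reversal turned, Slc26a4 gave -0.1183 at 1 week. With both turned, the difference for Slc15a2 was 0.002. With the dye term, Slc28a2 gave -0.0779 at 1 week. Without 1 array, the ranges were -0.2789 to 1.1311 for Slc11a2 at 6 weeks, -0.0072 to 1.6045 for Slc12a2 at 1 week, -0.0003 to 0.0687 for Slc28a2 at 1 week and -0.6819 to 0.029 for Slc6a6 at 6 weeks, with 0.0063 without the array against 6-week control.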

Other observations

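Carriers that the text has not yet described reached an unadjusted p under 0.05 for the mean of both times. Slc52a3, a riboflavin carrier, had log2 ratios of -0.12, 1.37 and 0.42 on the 6-week arrays and 0.16, 0.14 and 0.79 on the 1-week arrays, with spots up to 1.12 apart. Slc6a2, the noradrenaline carrier, had 1.37, -0.61 and 0.55 at 6 weeks and 0.10, 0.35 and 0.10 at 1 week, with spots up to 2.39 apart. Each was negative on 1 of the 6 arrays. Among other transporters whose spots disagreed, Abca7, a lipid transporter, was negative on every array, with -0.31, -0.44 and -1.05 at 6 weeks and -0.91, -0.77 and -1.06 at 1 week. Abcc9, a regulatory subunit of ATP-sensitive potassium channels, was positive on every array, with 0.89, 1.39 and 1.42 at 6 weeks and 0.96, 0.21 and 0.09 at 1 week. Aqp1, the water channel of capillary endothelium, had -0.24, -1.20 and -0.40 at 6 weeks and 0.33, -0.11 and 0.43 at 1 week, with every 6-week value below every 1-week value. Unlike those of Abca7 and Abcc9, its spots agreed, and its difference had an adjusted p of 0.613 in the agreeing-spot limma fit.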
